A study of Mus musculus with 6 samples.

Results

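The Sprouty and Spred genes examined here are Spry1, Spry2, Spry4, Spred1 and Spred2, chosen by name. Their members on the array were all probe sets that the platform annotation pairs with exactly 1 gene, that gene being 1 of the 5. There were 20 such probe sets, of 34945 with 1 gene and 45037 in all without control probe sets. They were measured on Affymetrix mouse genome arrays in mouse Ba/F3-N cells, a bone marrow-derived line that carries the oncogenic G12D form of NRAS. The 3 NADA samples had received 1 µM N-arachidonoyl dopamine (NADA), an endogenous lipid amide that binds vanilloid and cannabinoid receptors, for 12 hours. The 3 vehicle samples had received an equal volume of vehicle for the same time. Both groups carry NRAS-G12D, so no sample here is free of the oncogene, and the comparison asks which transcripts differ after NADA in cells with active RAS. The labels name neither separate cultures nor a clone, and the p-values therefore reflect only the spread of these samples, which may be technical.

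Sprouty and Spred proteins are feedback inhibitors of receptor tyrosine kinase signalling to RAS, RAF, MEK and ERK. They share a cysteine-rich Sprouty domain at the C-terminus, and Spred proteins add an N-terminal EVH1 domain through which Spred1 brings neurofibromin, a RAS GTPase-activating protein, to the plasma membrane. Transcription of several of these genes rises with ERK activity, so that their mRNA is often read together with Dusp6 and Etv5 as part of the output of the pathway. In blood cells, Spred1 and Spred2 restrain signalling downstream of cytokine and KIT receptors.

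As deposited, Spred2, Spred1 and Spry2 mRNA was lower in NADA-treated cells, at 48.9%, 56.7% and 57.8% of the vehicle level on the brightest probe set of each gene. Spry1 was near the limit of dim signal and differed little, and all 4 probe sets of Spry4 were dim in both groups. Of the 5 genes, 4 passed the filter on dim probe sets, a mean intensity of at least 38.64, which is the median of all probe sets. Among these 4, 3 fell and 1, Spry1, rose (with its sign turned under the poly-A scaling described next) in limma's test at an adjusted p under 0.05 over 10526 genes, where 37.5% of all genes were lower and 35.8% higher by the same rule. Calls were therefore common in these arrays, and the counts are read beside that background. Among all genes tested 5.53% had a lower log2 fold change than Spred2, 9.53% a lower one than Spred1 and 10.1% a lower one than Spry2, while the median of all genes was 0.01. In cultures measured in bulk, less RNA per cell and fewer cells with the RNA cannot be told apart.

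Control RNAs differed too. For the bacterial poly-A RNAs that were added to each sample, the mean log2 intensity was 8.87, 8.81 and 8.49 in NADA, against 8.16, 8.13 and 8.14 in vehicle. The log2 ratio of the 3' to the 5' probe set of Actb was 1.11, 1.07 and 1.01 in NADA, against 0.71, 0.65 and 0.64 in vehicle. Hybridization controls, added after labelling, had a mean log2 intensity of 10.08, 10.13 and 10.02 in NADA, against 10.00, 9.82 and 9.95 in vehicle, a difference of 0.15. In all 3 measures the groups did not overlap (two-sided exact permutation p = 0.1, the smallest that 3 against 3 arrays allow). If log2 values are scaled to the poly-A RNAs, every fold change drops by 0.58 on the log2 scale, with a standard error of 0.12 from the control RNAs alone. This moved Spred2 to -1.61 ± 0.16, Spred1 to -1.40 ± 0.13, Spry2 to -1.37 ± 0.18 and Spry1 to -0.36 ± 0.20 (standard errors over 3 arrays per group, without moderation). For Spred2, Spred1 and Spry2 every scaled NADA array stayed below every scaled vehicle array, and for Spry1 the groups overlapped. Limma then counted 76.1% of all genes as lower. The error of the scaling is shared by all genes, with a mean residual correlation between genes of 0.80 after scaling and 0.05 as deposited, and limma's prior degrees of freedom became infinite. Its p-values after poly-A scaling are too small for that reason, so none is given, and its counts there are no evidence of a change. The part of the control differences in the results below was not tested.

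The transcription start regions of the 3 genes that fell are shown as a description. All 3 were lower in NADA, as were 37.5% of all genes, and shared control was not tested. RefSeq promoters of the GRCm38.p6 assembly, 250 bases before to 50 after the start, were matched by symbol for 4 of the 5 genes. Both strands were searched for CCGGAA (a form of the site bound by ETS factors), TGANTCA (AP-1), TGACGTCA (the cAMP response element) and CACGTG (E-box). Shorter or variant forms of these sites were not searched, and the 1 match is in capitals.
Spry2, chr14:105896770-105897069, minus strand: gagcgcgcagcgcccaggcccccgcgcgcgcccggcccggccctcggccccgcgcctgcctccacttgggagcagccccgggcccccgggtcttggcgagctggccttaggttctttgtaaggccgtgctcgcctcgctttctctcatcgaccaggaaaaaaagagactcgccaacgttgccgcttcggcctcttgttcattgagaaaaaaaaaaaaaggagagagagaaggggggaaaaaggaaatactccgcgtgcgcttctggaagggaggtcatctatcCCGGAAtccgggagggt
Spred1, chr2:117120821-117121120, plus strand: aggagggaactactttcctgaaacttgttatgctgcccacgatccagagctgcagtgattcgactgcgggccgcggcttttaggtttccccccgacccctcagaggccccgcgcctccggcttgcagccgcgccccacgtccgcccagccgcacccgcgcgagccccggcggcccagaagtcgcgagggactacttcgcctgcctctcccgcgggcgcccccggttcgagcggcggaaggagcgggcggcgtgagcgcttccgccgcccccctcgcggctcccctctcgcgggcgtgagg
Spred2, chr11:19924192-19924491, plus strand: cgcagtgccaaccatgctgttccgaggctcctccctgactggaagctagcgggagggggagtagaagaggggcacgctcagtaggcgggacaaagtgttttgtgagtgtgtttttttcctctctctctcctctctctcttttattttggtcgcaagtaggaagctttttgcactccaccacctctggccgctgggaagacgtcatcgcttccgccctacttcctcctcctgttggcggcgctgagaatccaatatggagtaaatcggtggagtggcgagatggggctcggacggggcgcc

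The Spry2 window held 1 match, CCGGAA on the printed strand 34 bases after the start, a motif present in 14.9% of the 32851 promoters in that table. The windows of Spred1 and Spred2, and that of Spry1, held none of the 4 motifs as spelled above. TGANTCA was present in 7.81%, TGACGTCA in 1.79% and CACGTG in 7.15% of all promoters, so an empty window is the common case. The shares over all promoters were not adjusted for GC content. These matches are descriptions of letters, and no binding was measured.

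Spred2, an inhibitor of RAS-ERK signalling with an EVH1 domain, had the lowest log2 fold change of the 4 genes tested when each was read on its brightest probe set. Its brightest probe set, 1434403_at, had intensities of 385, 395 and 420.2 in NADA, against 816, 823 and 816 in vehicle. Every NADA array lay below every vehicle array. The log2 fold change was -1.03 ± 0.04 (limma's moderated standard error, here and below, n = 3 per group), with a limma adjusted p of 2.29e-12. The next brightest, 1436892_at, gave 117, 108 and 105.0 in NADA, against 226, 240 and 251 in vehicle. Its log2 fold change of -1.12 ± 0.06 was the lowest of the 14 passing probe sets.

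The other 3 probe sets of Spred2 showed a smaller difference. Probe set 1441415_at had 114, 126 and 118 in NADA, against 144, 152 and 136 in vehicle, and fell by 0.27 on the log2 scale (adjusted p = 0.00236 by limma over all passing probe sets). In 1441802_at the intensities were 66.9, 76.6 and 95.9 in NADA, against 85.5, 98.4 and 99.3 in vehicle, so that the groups overlapped. Its log2 fold change of -0.25 ± 0.11 was not called (limma adjusted p = 0.0593). It was called after median centring (-0.29), with array weights (-0.32), without NADA replicate 3 (-0.40) and without vehicle replicate 1 (-0.33), and its value without NADA replicate 1 was -0.14. Probe set 1423001_at, near the dim limit, stood at 44.9, 53.7 and 51.5 in NADA and 50.7, 49.1 and 44.7 in vehicle. Here the groups overlapped too, and the log2 fold change of 0.05 had a 95% interval of -0.14 to 0.25, which does not reach the size seen on the brightest probe set. The order of the genes turned when all passing probe sets of a gene were averaged. Spred2 was then still called at -0.53, but showed a smaller fall than Spred1 (-0.77) and Spry2 (-0.79, from its single passing probe set).

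Spred1, whose loss of one copy in people causes Legius syndrome, fell on all 7 of its passing probe sets. The brightest, 1423160_at, gave 985, 1001 and 992 in NADA, against 1634, 1826 and 1796 in vehicle. NADA arrays were closely grouped and all below the vehicle arrays, and the log2 fold change was -0.82 ± 0.04 (limma adjusted p = 2.29e-11, n = 3 per group). Probe sets 1423161_s_at and 1423162_s_at come from the same source record and are not independent of it in sequence. Probe set 1423161_s_at had 556, 563 and 553 in NADA, against 1038, 1067 and 1068 in vehicle, and a log2 fold change of -0.92 ± 0.04. Probe set 1423162_s_at had 280.4, 275 and 276 in NADA, against 509.7, 526 and 525 in vehicle, and a log2 fold change of -0.91 ± 0.04.

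Dimmer Spred1 probe sets from another source record gave falls of similar size. Probe set 1428777_at had 69.7, 76.4 and 69.5 in NADA, against 154, 134 and 148 in vehicle, with a log2 fold change of -1.02 ± 0.07. For 1452911_at the intensities were 65.6, 63.4 and 59.2 in NADA, against 116, 117 and 111 in vehicle, with a log2 fold change of -0.87 ± 0.07. In both, no NADA array reached the lowest vehicle array. Probe set 1460116_s_at, from another record, had 255, 259 and 284 in NADA, against 391.6, 419 and 422 in vehicle, and its log2 fold change was -0.63 ± 0.06. The smallest fall was that of 1445228_at, with 71.9, 62.4 and 69.0 in NADA, against 76.7, 75.3 and 80.3 in vehicle. Its groups did not overlap, yet the log2 fold change of -0.19 ± 0.08 (limma adjusted p = 0.0351) was not called with no dim filter, nor without NADA replicate 2 (-0.14), vehicle replicate 1 (-0.20) or vehicle replicate 3 (-0.17). The remaining probe set, 1443652_x_at, was dim at 14.7, 13.6 and 17.9 in NADA, against 18.4, 22.4 and 19.3 in vehicle. Types s and x can bind more than 1 transcript.

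**Figure D1:**
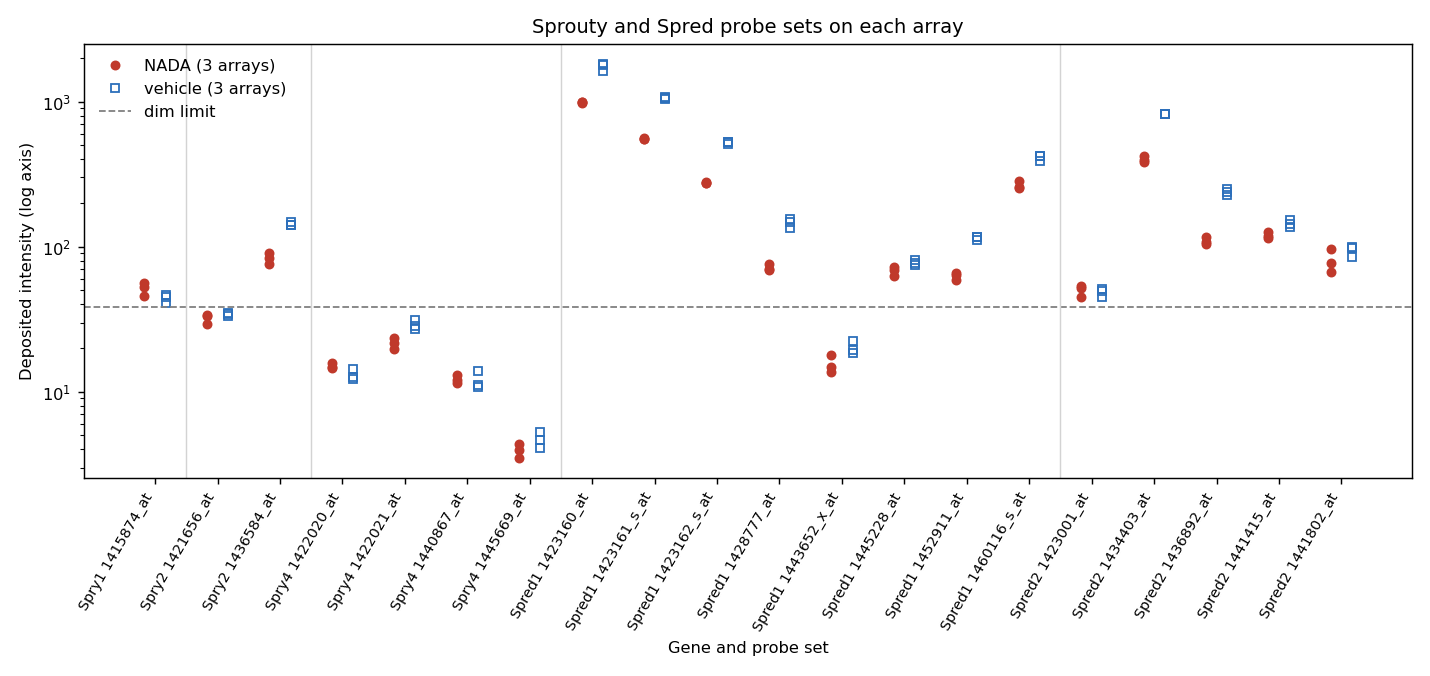
Deposited intensity (log axis) of the 20 Sprouty and Spred probe sets on each of 3 NADA arrays (filled circles) and 3 vehicle arrays (open squares), with the dim limit of 38.64 dashed. The NADA points of the bright Spred1 and Spred2 probe sets and of Spry2 1436584_at lie below all their vehicle points, and the 4 Spry4 probe sets lie under the dashed line in both groups.

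Spry2, an inhibitor that acts upstream of RAS and RAF and also binds the ubiquitin ligase CBL, was measured by 1 passing probe set. Probe set 1436584_at had intensities of 83.7, 76.0 and 89.9 in NADA, against 141, 149 and 141 in vehicle. The groups were well apart, with a log2 fold change of -0.79 ± 0.07 (limma adjusted p = 3.12e-08, n = 3 per group). The second Spry2 probe set, 1421656_at, was dim at 29.4, 33.7 and 33.0 in NADA, against 33.0, 35.0 and 34.5 in vehicle. With no dim filter its log2 fold change was -0.10, with a 95% interval of -0.29 to 0.10 (limma adjusted p = 0.473).

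Spry1, a family member with a similar inhibitory role, had a single probe set, 1415874_at. Its intensities were 45.7, 52.5 and 56.0 in NADA, against 45.2, 46.5 and 41.1 in vehicle. The lowest NADA array lay within the vehicle range, so the groups overlapped. The log2 fold change of 0.21 ± 0.09 had a limma adjusted p of 0.0472 over genes and 0.0577 over all passing probe sets, on opposite sides of the threshold. Over genes it was not called without NADA replicate 2 (0.20), NADA replicate 3 (0.15), vehicle replicate 1 (0.23) or vehicle replicate 3 (0.16), nor after quantile normalization (0.18), and the sign turned under poly-A scaling.

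Spry4, a Sprouty gene often induced by growth factors, gave only dim signal, and fold changes at such intensities rest on little signal. Its brightest probe set, 1422021_at, had 23.4, 19.8 and 21.7 in NADA, against 31.0, 27.1 and 28.4 in vehicle, with no overlap. With no dim filter its log2 fold change was -0.42 ± 0.10 (limma adjusted p = 0.00297), a fit in which 19.8% of 45037 probe sets were lower. Probe set 1422020_at, from the same source record, went the other way, also with no overlap. It had 14.6, 15.7 and 14.7 in NADA and 12.3, 14.3 and 12.7 in vehicle. Its log2 fold change of 0.20 was not called (limma adjusted p = 0.146). Probe sets 1440867_at (mean 12.2 in NADA and 11.9 in vehicle) and 1445669_at (3.93 and 4.69) overlapped between the groups and were not called (limma adjusted p of 0.831 and 0.0998). No direction is given for Spry4 from these values.

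The other genes of the family had a mean intensity over the arrays under the dim limit of 38.64. Spred3 was close to it, and NADA replicate 2 of Spred3, at 44.4, lay above it. Spred3, another EVH1-containing member, had a mean of 38.3 in NADA and 36.3 in vehicle, and Spry3 had 5.37 in NADA and 5.72 in vehicle. Neither was called with no dim filter (limma adjusted p of 0.671 and 0.61).

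Over probe sets, 14 of the 20 passed the dim filter, and 11 of these were lower and 0 higher in NADA in limma's test, 7 of Spred1, 3 of Spred2 and 1 of Spry2. At an unadjusted p under 0.05 Spry1 1415874_at was higher and Spred2 1441802_at lower as well. Among all 22519 passing probe sets, 36.2% were called lower. The same 11 had groups that did not overlap, with NADA below, as had 37.7% of all passing probe sets. Probe sets of 1 gene share their transcript, so the 11 are not 11 independent observations.

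**Figure D2:**
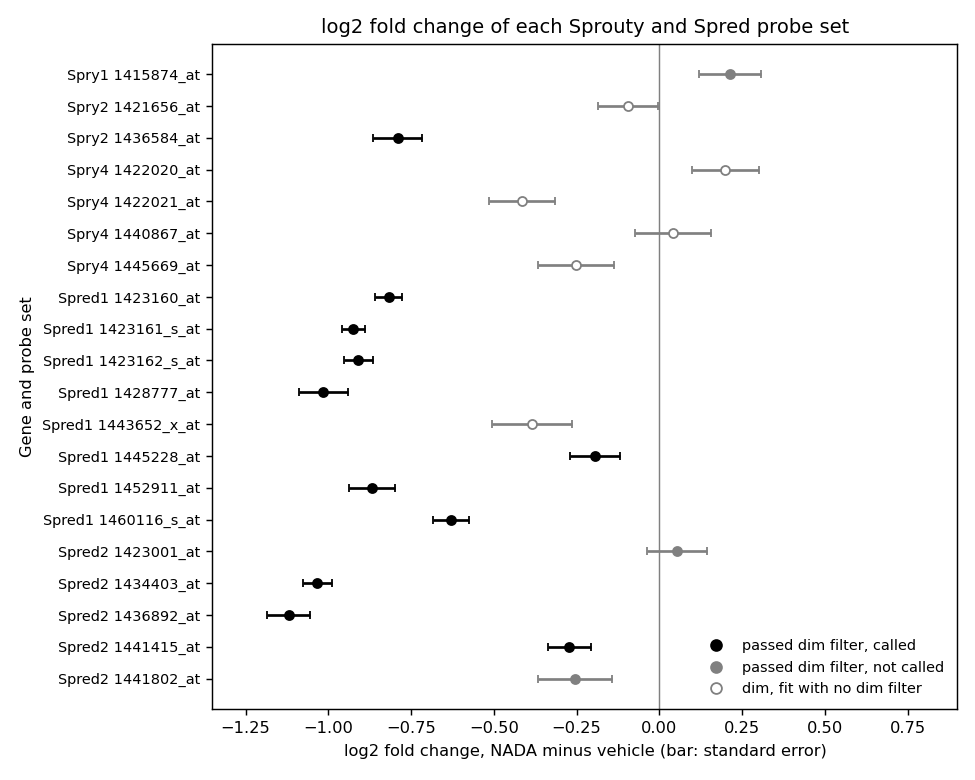
log2 fold change of NADA minus vehicle for each probe set, with limma's moderated standard error (3 arrays per group) as bars. Filled black points passed the dim filter and were called, filled grey points passed and were not called, and open points were dim and come from the fit with no dim filter, in which Spry4 1422021_at and Spred1 1443652_x_at were called lower. The lowest value is -1.12 for Spred2 1436892_at and the highest 0.21 for Spry1.

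Whether probe sets of 1 gene gave unequal changes was tested on the log2 difference between each passing probe set and the brightest of its gene within an array. Of 10 such pairs in Spred1 and Spred2, 5 differed between NADA and vehicle by limma at an adjusted p under 0.05, beside 40.5% of all 8453 pairs, so unequal probe sets are about as common elsewhere on these arrays. In each of the 5 the log2 fold change of the dimmer probe set was higher than that of the brightest. For Spred2 1423001_at it lay slightly above 0. How the unequal pairs of all genes split by direction was not counted, so this direction has no background beside it. For Spred2 the log2 differences in fold change were 1.08 ± 0.08 for 1423001_at, 0.76 ± 0.07 for 1441415_at and 0.78 ± 0.11 for 1441802_at (limma adjusted p of 2.90e-05, 1.04e-04 and 6.79e-04). For Spred1 they were 0.62 ± 0.08 for 1445228_at and 0.19 ± 0.06 for 1460116_s_at (limma adjusted p of 4.98e-04 and 0.0445). The remaining 5 pairs had log2 differences between -0.20 and -0.05 and were not called. The position of each probe set in its transcript was not used here.

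**Figure D3:**
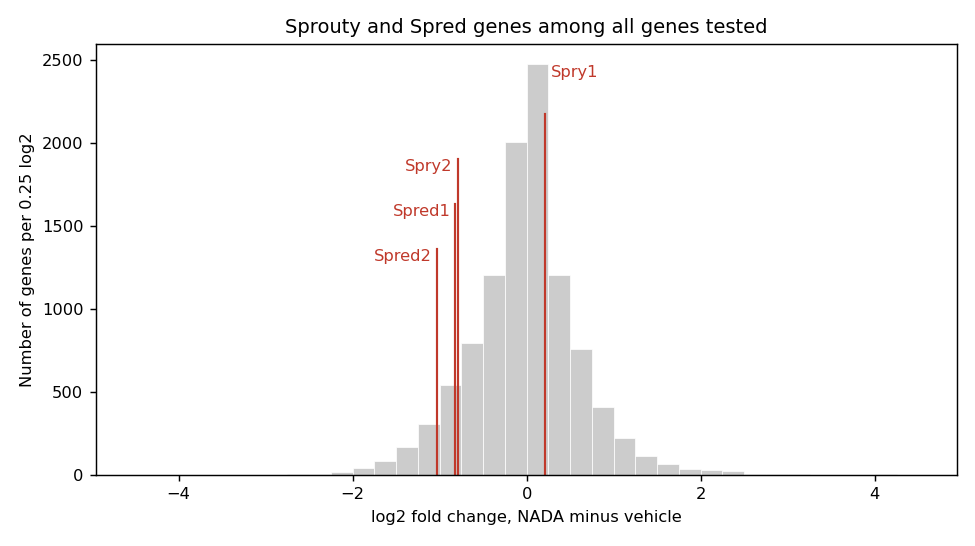
Number of genes per 0.25 log2 among the 10526 genes tested, with the log2 fold changes of the 4 tested Sprouty and Spred genes as red lines. Spred2 (-1.03), Spred1 (-0.82) and Spry2 (-0.79) stand in the lower tail and Spry1 (0.21) near the centre. Line height has no meaning.

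Of 29 tested genes on a list of other ERK feedback and target genes, 17 fell and 10 rose, where 37.5% of all genes were lower and 35.8% higher, and their median log2 fold change was -0.29 beside 0.01 for all genes. By smallest p the list was led by the ETS factor Etv5 (59.6 in NADA and 373 in vehicle), cyclin D1 (Ccnd1, -1.71 ± 0.06) and Rasa2, a RAS GTPase-activating protein, which had means of 508 in NADA and 1074 in vehicle. They were followed by Phlda1 (2.06 ± 0.08), the ERK phosphatase Dusp4 (349.5 in NADA and 733 in vehicle) and the immediate early gene Ier2 (-1.07 ± 0.04). Dusp5, Dusp7 and Dusp6, named after their values were seen, are phosphatases that inactivate ERK in a feedback loop parallel to Sprouty and Spred. Dusp5 fell by 0.96 and Dusp7 by 1.13 on the log2 scale, and Dusp6 by only 0.15 (means of 1975 in NADA and 2185 in vehicle). Among the 10 that rose were Fosl2 (1.34), Ier3 (0.85) and Elk3 (0.515), and Fos was not called (-0.05). These too are named after their values were seen, and the list was chosen with earlier results of these data known. After poly-A scaling the median was -0.87, beside -0.57 for all genes.

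The cascade that Sprouty and Spred proteins restrain was described by 18 tested genes of RAS, RAF, MEK and their adaptors and exchange factors. Of these, 9 rose and 6 fell, where 35.8% of all genes were higher and 37.5% lower, and the median log2 fold change was 0.10 beside 0.01 for all genes. Gab2, an adaptor of cytokine receptors, had means of 571 in NADA and 171 in vehicle, and the RAS-related GTPase Rras had 209 in NADA and 75.2 in vehicle. The exchange factor Rasgrp2 (-1.28 ± 0.06), Rras2 (-0.65 ± 0.04), the RAF inhibitor Pebp1 (-0.26 ± 0.03) and Nras (-0.39 ± 0.04) fell. Whether the Nras probe set reads the normal form, the oncogenic G12D form or both was not tested. With poly-A scaling the median was -0.48, beside -0.57 for all genes.

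Of 23 tested genes on a list of Sprouty and Spred partners and related genes, 9 rose and 9 fell. These shares were near those over all genes (35.8% higher and 37.5% lower). Their median log2 fold change was 0.05 beside 0.01 for all genes, and after poly-A scaling -0.53 beside -0.57. Egln1, a prolyl hydroxylase, had means of 235 in NADA and 480.0 in vehicle (-1.03 ± 0.05). Ptpn11, which encodes the phosphatase SHP2 that removes phosphate from Sprouty tyrosines, had 423 in NADA and 778 in vehicle (-0.88 ± 0.04). The kinase gene Mknk1, whose product phosphorylates Spry2, rose by 0.86 ± 0.06, and Plcg1 and Rhoa rose by 0.40 and 0.25, while Cav2 fell by 0.27. Nf1, the GTPase-activating protein recruited by Spred1, named after its values were seen, was not called, with 81.3 in NADA and 73.4 in vehicle (0.15 ± 0.07, limma adjusted p = 0.0708). Kit, whose receptor Spred proteins restrain in mast cells, was dim at 10.5 in NADA and 10.2 in vehicle.

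**Figure D4:**
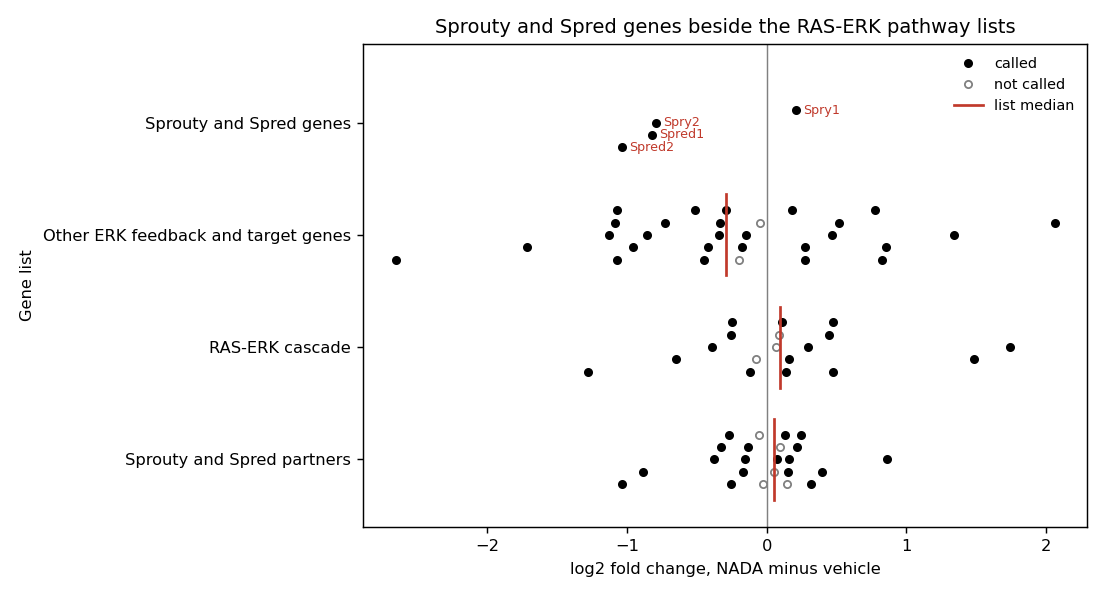
log2 fold change of each tested gene in NADA minus vehicle, as deposited, for the Sprouty and Spred genes and for the 3 pathway lists, with called genes filled, other genes open and each list median as a red bar. The medians are -0.29 for ERK feedback and target genes, 0.10 for the RAS-ERK cascade and 0.05 for partners.

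Some genes outside the family followed almost the same profile over the 6 arrays. Likeness was the root mean square distance between log2 values after subtracting each gene's mean. Nearest to Spred2 among the other 10525 genes were Ccdc115 (0.02 log2), 9130401M01Rik (0.02) and Tex30 (0.03), and nearest to Spry1 were Add2 (0.03), Barhl1 (0.03) and Sel1l3 (0.04). With 2 groups of 3 arrays such likeness mostly records an equal fold change.

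The line was checked against its labelled origin. Of 10 pro-B and B lymphoid markers named on the array, 2, Cd79b and Igll1, passed the dim filter, and Pax5, Ebf1, Cd79a, Vpreb1 and Rag1 were dim in both groups. The brightest probe sets of these 10 genes summed to 312 to 337 in NADA and 285 to 289.5 in vehicle. Of the 5 interleukin-3 receptor and progenitor markers, the receptor chains Csf2rb2, Csf2rb and Il3ra passed, and Kit and Cd34 were dim in both groups. The list summed to 6952 to 7259 in NADA and 1766 to 1842 in vehicle, mostly from Csf2rb2 and Csf2rb. Their means were 3574 and 3337 in NADA, and 702.5 and 990 in vehicle. Of 7 myeloid markers, Adgre1, Lyz2 and Csf1r passed and rose, and the list summed to 611 to 622 in NADA and 331 to 358 in vehicle, with Mpo, Elane and Itgam dim in both groups. Of 5 T cell markers on the array, 2, Cd4 and Cd3e, passed, and the list summed to 184 to 191 in NADA and 170.1 to 188 in vehicle. Of 7 fibroblast and endothelial markers, 2, Pecam1 and Dcn, passed. That list summed to 206 to 218 in NADA and 217 to 234 in vehicle. Passing the filter thus did not set the B lymphoid list apart from these lists. The part of these levels in the Sprouty and Spred results was not tested.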

How the data were processed

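Transcript levels were read on 6 Affymetrix arrays, 3 NADA and 3 vehicle, grouped by sample title. Each deposited value is a linear intensity of 1 probe set on 1 array, normalized by the authors, as judged from the array medians. The tools MAS5 and RMA appear in the submitters' processing notes without role or version, and no detection calls were used. From these, log2 was taken, 64 control probe sets were set aside, and probe sets with a mean under the median of 38.64 were left out as dim. The brightest passing probe set stood for each gene.

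Limma 3.58.1 in R 4.3.3 compared NADA with vehicle (lmFit, eBayes with an intensity trend, two-sided, Benjamini-Hochberg over every gene or probe set tested), and "called", "rose" and "fell" mean an adjusted p under 0.05. Differences between probe sets of 1 gene were fitted without the trend. Steps were run on simulated data with independent noise and few changed features, unlike these arrays. This checks the code and does not bear on the calls. The genes, lists, alternatives and naming rule were chosen with earlier results of these data known. The naming rule takes every Sprouty and Spred probe set, Spry3 and Spred3, up to 6 genes of smallest p per list, and the 3 genes nearest to the extreme members. With 3 arrays per group, their number limits the precision. Alternatives covered scaling, low values, filters, the variance model, probe set choice, thresholds, a block for replicate number and leaving out single arrays.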

Additional observations from a re-analysis of the deposited data

How the results depend on the processing

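The falls of Spred2, Spred1 and Spry2 kept their sign and their call in every alternative that gave them a value, with log2 fold changes of -1.61 to -0.53, -1.40 to -0.74 and -1.37 to -0.61. Spry1 did not. It was not called after quantile normalization (0.18), median centring (0.18), a floor of 50 (0.079), no dim filter, an adjusted p under 0.01 or a 1.5-fold minimum (0.21 in each), and turned to -0.36 under poly-A scaling, where its groups overlapped. Poly-A scaling adds an error shared by all genes that limma takes as independent, so calls and counts under it overstate the evidence. Leaving out 1 array gave 0.15 to 0.29, and the count of the 5 genes called higher was then 0 or 1. That count was 0 under the settings just named and when the dim filter stood at the 70th percentile, which leaves Spry1 and Spry2 out. Spred2 1423001_at turned to -0.53 under poly-A scaling and to -0.001 without NADA replicate 2 or vehicle replicate 3, with a range of -0.001 to 0.13 over arrays left out.

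Probe sets called higher numbered 1 with no intensity trend or with array weights, and 0 to 1 with an array left out. Those called lower numbered 11, and 12 after median centring, with array weights or with the replicate block, each time with Spred2 1441802_at added, 14 under poly-A scaling, and 7 with the dim filter at the 70th percentile, where fewer were tested, and unequal pairs of probe sets numbered 2 there and 8 with no dim filter.

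Over all genes, 7719 were called, 3768 higher and 3951 lower. Poly-A scaling gave 733 higher and 8009 lower, and a 1.5-fold minimum gave 3031, 1369 higher and 1662 lower. With that minimum 6228 probe sets were called, against 15898. Unequal pairs numbered 3423, and 1809 with the 70th percentile, 2072 at an adjusted p under 0.01 and 679 with the 1.5-fold minimum. In the pathway lists poly-A scaling gave 2 higher and 13 lower (cascade), 3 higher and 22 lower (ERK targets), and 1 higher and 20 lower (partners), and the 1.5-fold minimum gave 2 and 2, 5 and 9, and 1 and 2.

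Same-numbered arrays deviated from their group means with correlations of 0.16, -0.10 and 0.02, and differently numbered arrays with -0.21 to 0.19. With 3 arrays per group these values cannot show whether an equal number means a shared culture or batch. With the replicate block 7742 genes were called, Spred2 1441802_at (-0.25) was called and 4 pairs were unequal, and no other call on the Sprouty and Spred probe sets changed.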
